A study of Arabidopsis thaliana with 8 samples.

Results

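The 7 Arabidopsis genes described here are AT1G03890, a cupin, PAP85 (AT3G22640), a vicilin-like protein, AT3G01570, an oleosin, and AT5G45690, AT1G04560, AT1G14950 and AT1G19900. They were chosen by name from values measured in these same samples, because their signal was lower after NaCl in wild-type and higher after NaCl in the overexpressing line. Each is read by 1 probe set, and they are 7 of the 13286 genes that have a named probe set of their own among 22746 probe sets. Their levels in the 4 groups and the differences between those levels are therefore given as a description, with no test. Tests are given only for other genes.

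Cupins are a large protein family that includes the 12S globulins (cruciferins) and the 7S vicilin-like globulins, which a seed lays down as nitrogen reserve. Oleosins coat the oil bodies that hold the triacylglycerol of the embryo and keep them from fusing. These reserve genes are known for strong expression in the maturing embryo, under abscisic acid and a small set of transcription factors, and for loss of that expression after germination. The gene table used here names no function for AT5G45690, AT1G04560, AT1G14950 and AT1G19900. In the gene lists used below, AT5G45690 had been placed with the oil body proteins and AT1G19900 with the seed coat genes.

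RNA from whole seedlings aged 14 days was hybridised to 8 ATH1 GeneChip arrays, in 4 groups of 2. Wild-type was the accession Columbia (Col-0), and OE was a line in the same background, that was homozygous for the transgene and carried rice OsSHMT3, a serine hydroxymethyltransferase, under the pENTCUP2 promoter. Each genotype was sampled without added salt (control) and after 24 h in 150 mM NaCl in hydroponic culture, a dose that another passage of the study gives differently. The study's methods name more than 1 OE line for the arrays, while its results give the array counts for line OE5. The methods speak of replicated samples with RNA extracted in triplicate, while 2 arrays a group are used here. The labels do not say which line was used or whether the arrays of a group came from separate cultures, so p-values measure the spread between these arrays, which may be technical. Overexpression of the rice gene was not checked here. In whole seedlings, fewer cells of a type and less RNA per cell cannot be told apart.

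Values are log2 signal, so that a difference of 1 is a 2-fold difference, and levels are compared only within a probe set. Array medians were 6.27 to 6.33 in the 4 wild-type arrays and 6.00 to 6.32 in the 4 OE arrays, and the 2 OE control arrays had the lowest, 6.00 and 6.08. Replicate arrays differed over all probe sets with an SD of 0.213 (wild-type control), 0.116 (wild-type NaCl), 0.430 (OE control) and 0.551 (OE NaCl). The deposited table has no detection calls, so whether the lowest values below lie above background was not tested. COR47, COR15A and LTI30, which are known to rise with cold and drought, were called higher after NaCl in both genotypes, by log2 differences of 1.24, 1.18 and 1.70 in wild-type and 0.69, 0.65 and 2.16 in OE (limma, adjusted p from 0.000274 to 0.0330). The calls of LTI30 were kept without any 1 array, while those of COR47 and COR15A were lost without some arrays. In OE the calls of COR47 and COR15A were also lost with arrays centred on their medians (limma, adjusted p = 0.0966 and 0.0968). They were lost too with only the OE arrays fitted (0.282 and 0.310) and with array weights (0.183 and 0.235). Array medians were on average 0.17 higher in OE NaCl than in OE control, and median centring lowers every OE response by that amount.

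The cupin AT1G03890, on chromosome 1, read 8.36 and 8.59 on the wild-type control arrays and 4.30 and 4.34 on the wild-type NaCl arrays. In OE it read 7.43 and 7.10 in control and 9.97 and 9.92 after NaCl. The 4 groups did not overlap, and the 2 groups treated with NaCl held both the lowest and the highest values. The signal after NaCl was 17.9-fold lower in wild-type (log2 difference -4.16) and 6.41-fold higher in OE (log2 difference 2.68). Its difference between OE and wild-type after NaCl, 5.63 on the log2 scale or 49.4-fold, was the largest positive difference among all 22746 probe sets.

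PAP85, on chromosome 3, belongs to the vicilin-like globulins. It read 9.28 and 9.30 in wild-type control and 6.58 and 6.98 in wild-type NaCl. In OE it read 7.99 and 7.86 in control and 10.29 and 10.45 after NaCl. No groups overlapped, and the wild-type NaCl arrays, although furthest apart from each other with a gap of 0.40, stayed below all others. The fold differences in opposite directions were close in size, 5.68-fold lower in wild-type (log2 difference -2.51) and 5.46-fold higher in OE (2.45).

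The oleosin AT3G01570, on the same chromosome, had the smallest difference in wild-type of the 7. It read 9.38 and 9.36 in wild-type control and 7.52 and 7.54 in wild-type NaCl, 3.58-fold lower (log2 difference -1.84). It read 8.98 and 8.90 in OE control and 10.73 and 10.50 in OE NaCl, 3.19-fold higher (log2 difference 1.67). The groups again did not overlap, although the 2 control groups lay closer together than in any of the other 6 genes, at a log2 difference of -0.43 for OE minus wild-type.

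AT5G45690, on chromosome 5, read 7.28 and 7.12 in wild-type control and 3.72 and 3.85 in wild-type NaCl. In OE it read 4.46 and 4.76 in control and 7.35 and 7.43 after NaCl. The OE control arrays lay near the wild-type NaCl arrays, and the OE NaCl arrays near the wild-type control arrays, with no overlap between groups. The response was 10.7-fold lower in wild-type (log2 difference -3.41) and 6.88-fold higher in OE (2.78).

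AT1G04560, on chromosome 1, showed nearly the same arrangement. It read 8.66 and 8.62 in wild-type control and 5.36 and 5.15 in wild-type NaCl, 10.5-fold lower (log2 difference -3.39). It read 5.68 and 6.43 in OE control and 8.66 and 9.24 in OE NaCl, 7.44-fold higher (log2 difference 2.90, the largest of the 7 in OE). The lower OE NaCl array fell within the wild-type control values, so those 2 groups overlapped, and the gap of 0.75 between the OE control arrays was the widest gap between replicates in any of the 7 genes.

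AT1G14950, also on chromosome 1, had the largest difference in wild-type, 20.6-fold lower (log2 difference -4.37), with 9.11 and 8.96 on the control arrays and 4.52 and 4.81 on the NaCl arrays. In OE it read 7.42 and 7.12 in control and 9.26 and 9.39 after NaCl, 4.15-fold higher (log2 difference 2.05). Its OE NaCl arrays were above both wild-type control arrays, but the group means differed by only 0.30.

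AT1G19900, the seed coat list member, lies on chromosome 1 as well. It read 8.41 on both wild-type control arrays and 4.59 and 4.39 on the wild-type NaCl arrays, 15.1-fold lower (log2 difference -3.92). It read 6.25 and 6.60 in OE control and 8.29 and 7.62 in OE NaCl, 2.89-fold higher (log2 difference 1.53, the smallest of the 7 in OE). This gene alone had its OE NaCl arrays below wild-type control, by 0.45 in the means, beside a gap of 0.66 between the OE NaCl arrays.

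**Figure D1:**
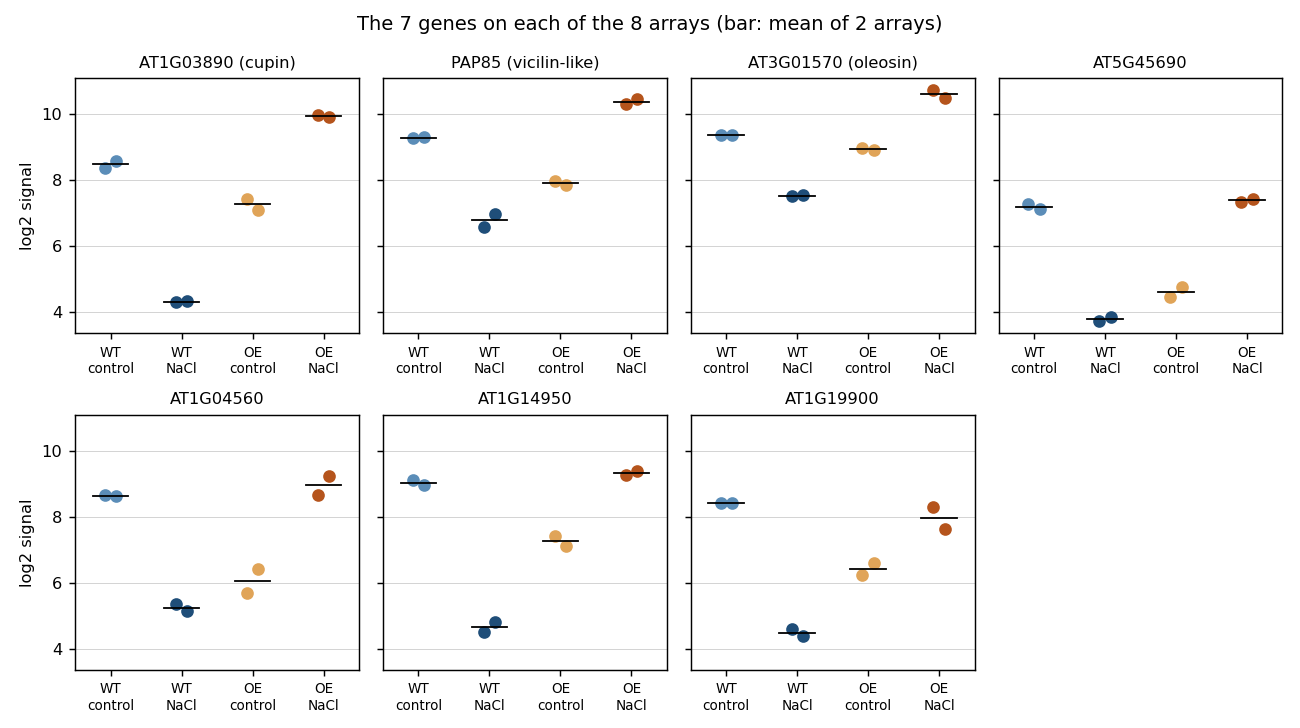
Log2 signal (vertical axis) of each of the 7 genes in the 4 groups (horizontal axis). Points are single arrays and bars are means of 2 arrays. Wild-type NaCl is the lowest group in every panel, and OE NaCl is the highest in all but AT1G19900.

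The order of the group means, from low to high, was wild-type NaCl, OE control, wild-type control and OE NaCl in 6 genes. In AT1G19900 the last 2 changed places. Wild-type control and OE NaCl were close neighbours in that order in some genes, and the means differed by 0.19 in AT5G45690, 0.30 in AT1G14950 and 0.31 in AT1G04560. In the cupin, PAP85 and the oleosin the OE NaCl arrays stood clear of wild-type control, by 1.47, 1.08 and 1.24. AT5G45690, which the lists also place with the oil body proteins, had the narrowest of the positive margins, so the storage and oil body members did not share this feature.

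In all 7 genes both wild-type NaCl arrays were below both wild-type control arrays, as was the case for 38.1% of all probe sets. In all 7 both OE NaCl arrays were above both OE control arrays, as for 23.1% of all probe sets. Both patterns together were seen in 5.13% of all probe sets. With a log2 difference over 1 in each genotype they were seen in 69 probe sets, or 0.303%, of which 41 name 1 gene and 7 are the genes described here. The mirror pattern, higher in wild-type and lower in OE by over 1, was seen in 2 probe sets (0.00879%). Since these contrasts were used to choose the 7 genes, the shares are a background only.

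The median difference of the 7 genes was -3.41 in wild-type and 2.45 in OE, beside -0.05 and 0.01 over all probe sets. In wild-type the differences ranged from -4.37 to -1.84 on the log2 scale. In OE they covered a narrower range, from 1.53 to 2.90. In each of the 7 genes the difference in wild-type was larger in size than that in OE, by 0.06 in PAP85, 0.17 in the oleosin, 0.49 in AT1G04560, 0.63 in AT5G45690, 1.48 in the cupin, 2.31 in AT1G14950 and 2.39 in AT1G19900. The sizes in the 2 genotypes did not go in step. AT1G14950 had the 4th lowest difference of all probe sets in wild-type but the 140th highest in OE, and AT1G19900 was 8th lowest in wild-type and 306th highest in OE. AT1G04560 was 14th lowest and 32nd highest.

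**Figure D2:**
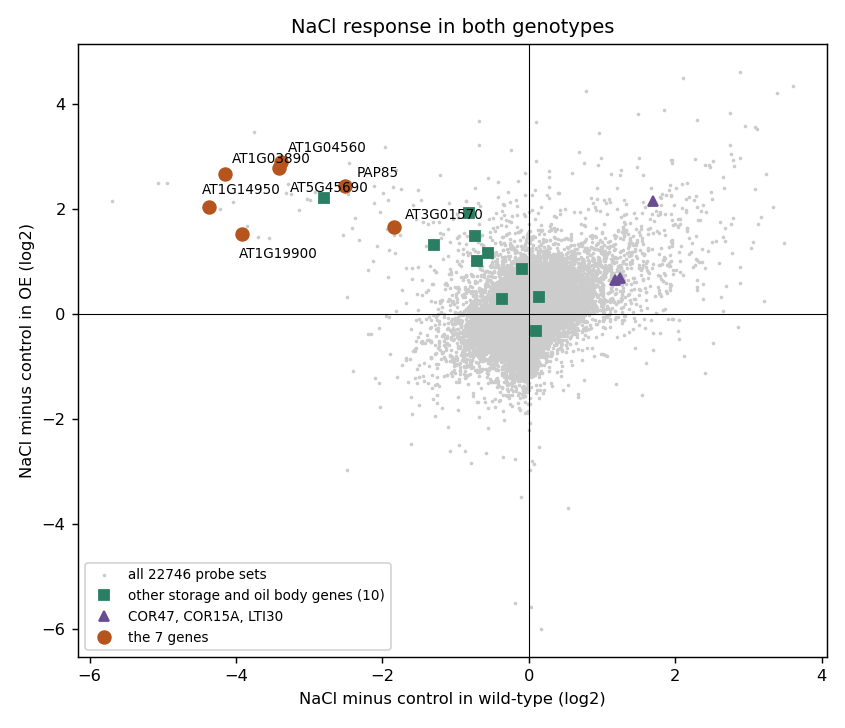
NaCl response in wild-type (horizontal axis, log2 difference of means of 2 arrays) against that in OE (vertical axis, same unit) for all 22746 probe sets. The 7 genes lie in the upper left, between -4.37 and -1.84 in wild-type and between 1.53 and 2.90 in OE, while COR47, COR15A and LTI30 lie in the upper right.

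The genotypes already differed without salt. Both OE control arrays were below both wild-type control arrays in all 7 genes, beside 36.3% of all probe sets. The difference was small in the oleosin, at 1.35-fold, was 2.32-fold in the cupin and 2.58-fold in PAP85, and reached 6.00-fold in AT1G04560 and 6.03-fold in AT5G45690. AT1G14950 was 3.38-fold and AT1G19900 3.96-fold lower in OE control. The median of the 7 was -1.76 on the log2 scale, beside -0.02 over all probe sets, and was -1.50 once each array was centred on its median, which raises every OE minus wild-type difference in control by 0.26.

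After NaCl the genotype difference had the other sign. Both OE arrays were above both wild-type arrays in all 7 genes, beside 32.6% of all probe sets, with a median log2 difference of 3.61, beside 0.04. The fold ranged from 8.47 in the oleosin through 11.0 in AT1G19900, 12.0 in PAP85, 12.2 in AT5G45690 and 13.0 in AT1G04560 to 25.3 in AT1G14950 and 49.4 in the cupin. The oleosin stood lowest of the 7 in both comparisons between genotypes.

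**Figure D3:**
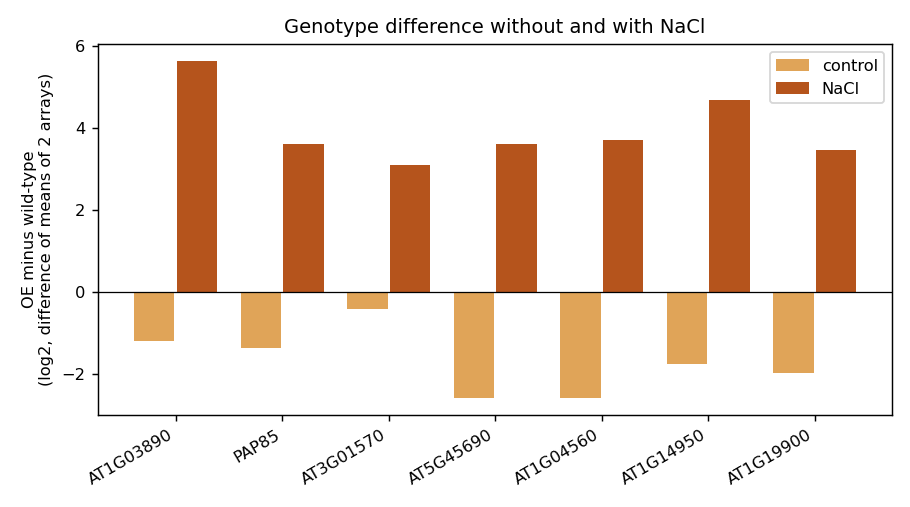
OE minus wild-type (vertical axis, log2 difference of means of 2 arrays) for each of the 7 genes, in control and after NaCl. All 7 control bars lie below 0, from -2.59 to -0.43, and all 7 NaCl bars above it, from 3.08 to 5.63.

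The spread between replicates was small beside these differences. Within a group the gap between the 2 arrays had a median over the 7 genes of 0.04 and 0.20 in the control and NaCl arrays of wild-type, and of 0.31 and 0.16 in those of OE. No single array was the higher one of its pair in all 7 genes. Over the 8 arrays the 21 pairs of these genes had Pearson correlations from 0.865 to 0.993, with a median of 0.940, which describes a set chosen for a shared pattern over 4 groups.

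Seed reserve genes outside the 7 allow the same comparison to be tested. Of 29 others listed as storage or oil body proteins, 10 had a probe set that names them, which is what measured means for all lists below. The 2S albumins, the main cruciferins, OLEO1 and the caleosins were not among the 10 and are not analysed here. In wild-type 4 of the 10 fell after NaCl and 0 rose, where 2.56% of all probe sets fell (limma, adjusted p under 0.05 over all 22746 probe sets). In OE 5 rose and 0 fell, where 4.88% of all rose. The response differed between the genotypes in 5, in each case higher in OE, beside 1.23% of all probe sets. Their median difference was -0.63 in wild-type and 1.10 in OE, smaller than in the 7 genes. Without salt 3 of the 10 were lower in OE, beside 12% of all probe sets, and after NaCl 5 were higher, beside 4.12%.

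Among the storage list only AT2G28490 of 5 measured genes passed the test. It read 8.66 and 8.84 in wild-type control and 5.98 and 5.93 in wild-type NaCl, against 7.64 and 7.47 in OE control and 9.87 and 9.67 in OE NaCl. After NaCl it fell by 2.80 in wild-type (limma, SE 0.15, adjusted p = 0.000190) while in OE it rose by 2.22 (adjusted p = 0.000388), so that the responses differed by 5.01 (adjusted p = 7.23e-05). It was lower in OE control by 1.20 (limma, adjusted p = 0.00414). None of these calls was lost when any 1 array was left out, with adjusted p up to 0.0446.

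The other 4 genes of the storage list did not pass the test. AT4G36700 differed by -0.71 in wild-type and 1.02 in OE (limma, adjusted p = 0.266 and 0.0854). AT2G18540, AT1G07750 and AT2G28680 had differences between -0.09 and 0.14 in wild-type and between -0.32 and 0.86 in OE. The storage list was thus not uniform.

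Of the 5 measured oil body genes 3 were called lower after NaCl in wild-type, beside 2.56% of all probe sets, and 4 higher in OE, beside 4.88%. OLEO3, an oleosin, read 9.11 and 9.17 in untreated wild-type and 8.37 and 8.43 after NaCl, whereas the OE arrays read 8.91 and 8.98 untreated and 10.54 and 10.36 after NaCl. After NaCl it fell by 0.74 in wild-type (limma, adjusted p = 0.0212), while in OE it rose by 1.50 (adjusted p = 0.00121), and it differed by -0.19 between the genotypes in control (adjusted p = 0.306), or 0.07 with arrays centred on their medians. The groups of OLEO3 did not overlap in either salt comparison.

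AT2G25890 fell by 1.29 in wild-type and rose by 1.31 in OE (limma, adjusted p = 0.0150 and 0.0133), and it was lower in OE control by 1.64 (adjusted p = 0.00486). AT1G29680 fell by 0.82 and rose by 1.94 (adjusted p = 0.0174 and 0.000528), with OE control lower by 1.40 (adjusted p = 0.00223). AT3G18570 rose in OE by 1.17 (adjusted p = 0.00782), and its difference in wild-type was -0.56 (adjusted p = 0.111). The responses of these 3 differed between genotypes by 2.61, 2.75 and 1.73 (limma, adjusted p = 0.00700, 0.000874 and 0.0150). AT4G18920 differed by -0.36 and 0.30 and passed in neither genotype.

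Several of these smaller changes lost their call when arrays were left out or fitted apart. The falls of OLEO3, AT2G25890 and AT1G29680 in wild-type lost their call without any 1 of the 4 wild-type arrays, with adjusted p up to 0.256, 0.148 and 0.222. The rises of OLEO3, AT2G25890 and AT3G18570 in OE were not called once the OE arrays were fitted alone (limma, adjusted p = 0.0564, 0.163 and 0.107). The difference between responses was lost without any 1 of the wild-type arrays in AT2G25890 (adjusted p up to 0.0721), and in AT3G18570 without either wild-type NaCl array, wild-type control 2 or OE control 1 (up to 0.129).

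**Figure D4:**
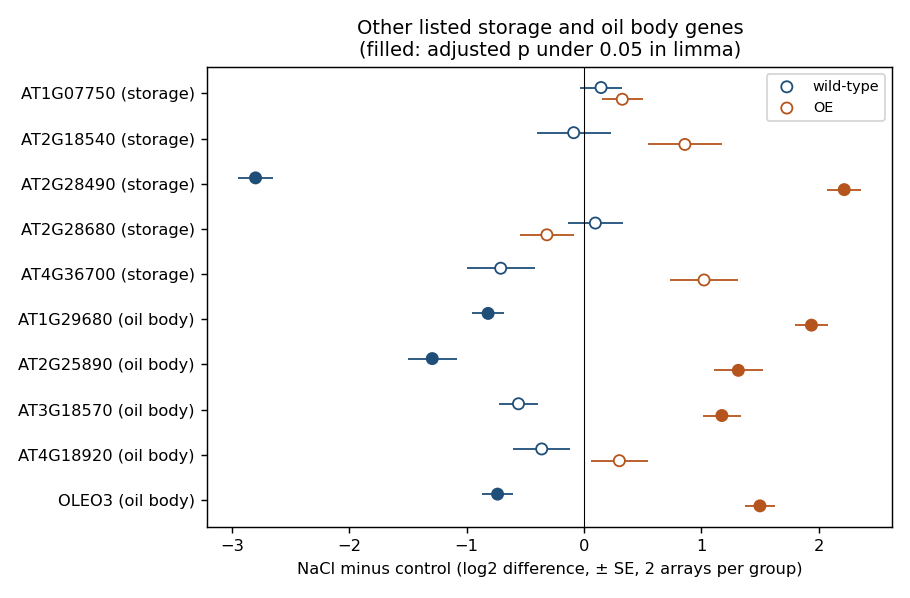
NaCl minus control (horizontal axis, log2 difference, bars are SE from limma, 2 arrays per group) for the 10 other measured storage and oil body genes, in wild-type and OE. Filled points passed an adjusted p of 0.05; AT2G28490 has the widest separation, -2.80 against 2.22.

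Of 20 listed transcription factors of seed maturation, 2 had a named probe set. EEL, a bZIP factor known to act on embryo genes, differed by 0.12 in wild-type and 0.87 in OE (limma, adjusted p = 0.937 and 0.0869). BZIP53, known to activate storage protein promoters, differed by -0.36 and -0.23 (adjusted p = 0.307 and 0.416). Neither passed the test in any of the 5 comparisons.

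Of the 7 listed genes of reserve mobilisation, 2 were measured. ICL, isocitrate lyase of the glyoxylate cycle, which turns stored fat into sugar after germination, read 5.56 and 5.91 in untreated wild-type and 4.57 and 4.97 after NaCl, whereas in OE it read 5.12 and 5.83 untreated and 7.33 on both NaCl arrays. It rose by 1.86 in OE (limma, adjusted p = 0.00857), a call lost in a fit of the OE arrays alone (0.0826) and with array weights (0.0956), and its difference in wild-type was -0.96 (adjusted p = 0.0917). The responses differed by 2.82 (adjusted p = 0.0145), a call lost without any 1 wild-type array (up to 0.111). SDP1, the lipase that opens the oil bodies, differed by 0.25 and -0.22 and passed in neither genotype. The 7 listed genes of seed oil synthesis have no probe set that names them here and are not analysed.

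Embryo proteins of the LEA class, hydrophilic proteins of the drying seed, were not uniform. Of 13 measured of 20 listed, wild-type had 4 that rose (beside 3.26% of all probe sets) and 3 that fell (beside 2.56%) after NaCl, while OE had 5 (beside 4.88%) and 0, with median differences of 0.05 and 0.84. Without wild-type control 1 the wild-type counts were 0 and 1, and without wild-type control 2 or either wild-type NaCl array they were 1 and 1. In OE 3 rose with only the OE arrays fitted, and 8 without OE NaCl 1. The response was higher in OE for 3 (beside 1.23% of all probe sets), AtLEA4-1, the dehydrin LEA and AT3G15670, and lower for M17 (beside 0.422%). Without OE NaCl 1 it was higher for 7, and without any 1 wild-type array it was lower for 0. The summed level of the 13, on the linear scale, was 891 to 944 on the 4 wild-type arrays, 321 to 361 on the OE control arrays and 1330 to 1676 on the OE NaCl arrays. This sum follows the brightest probe sets most and hides opposite changes. In wild-type the dehydrin LEA differed by -1.82 and AtLEA4-1 by -0.69 after NaCl, while AT2G42560 rose. AT2G42560 rose in both genotypes, by 2.29 and 3.70 (limma, adjusted p = 0.00345 and 0.000503), the former call being lost without wild-type control 1 (adjusted p = 0.0532).

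Other seed coat genes did not follow AT1G19900. Of 4 measured of 16 listed, none changed in wild-type, while 2 fell in OE, beside 2.33% of all probe sets. BAN, the anthocyanidin reductase of seed coat tannin synthesis, fell by 2.79 in OE (limma, adjusted p = 0.000274), and DFR, dihydroflavonol 4-reductase, by 1.35 (adjusted p = 0.0209, lost without either OE control array or any 1 wild-type array, up to 0.0797). In wild-type they differed by 0.04 and 0.15. AT3G50990 differed by -0.44 and -0.66 after NaCl, and its OE level lay below that of wild-type by 1.04 in control and 1.26 after NaCl (adjusted p = 0.0210 and 0.0137), calls lost without some wild-type arrays (up to 0.126).

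Markers of other organs gave the following values, and their part in the results above was not tested. Of 14 listed green leaf genes 5 were measured, and their summed linear level was 25919 to 27261 on the control arrays and 22563 to 24502 on the NaCl arrays of both genotypes. AT1G11860 fell in both genotypes, by 0.69 and 0.64 (limma, adjusted p = 0.0240 and 0.0286), LHCB4.2, an antenna protein of photosystem II, fell in wild-type by 0.55 (adjusted p = 0.0426), and LHCB4.3 fell in OE by 0.83 (adjusted p = 0.0114). The other measured leaf genes were not called after NaCl in either genotype. Of 10 listed root genes 3 were measured, with a summed level of 174 to 179 in untreated wild-type and 363 to 382 after NaCl, against 239 to 286 and 652 to 909 in OE. PYK10, a beta-glucosidase of roots, rose in both genotypes, by 1.32 and 1.92 (adjusted p = 0.0149 and 0.00304), and EXPA7, a root hair expansin, was higher in OE control by 0.83 (adjusted p = 0.0267). The summed root level mainly followed PYK10. EXPA7 and EXPA18 read between 3.96 and 5.56 on the 8 arrays. Neither was called after NaCl in wild-type (limma, adjusted p = 0.92 and 0.71) or in OE (0.16 and 0.80). Of these leaf and root calls only that of PYK10 in OE was kept without any 1 array, although not with only the OE arrays fitted (adjusted p = 0.0709), and the others reached adjusted p from 0.0503 in LHCB4.3 to 0.399 in LHCB4.2. Of 14 anther genes 2 were measured, between 3.67 and 4.69 on the 8 arrays, and neither passed in any comparison.

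The 7 genes lie on 3 chromosomes, 4 of them on chromosome 1, 2 on chromosome 3 and 1 on chromosome 5, and none is the direct neighbour of another. Of their 14 flanking genes in the TAIR10.1 annotation, 6 were measured and 1 changed after NaCl. It was lower in wild-type, beside 2.56% of all probe sets, and higher in OE, beside 4.88%. That gene, AT1G14940, lies beside AT1G14950. It read 4.94 and 4.86 in untreated wild-type and 3.59 on both arrays after NaCl, and in OE 4.22 and 4.14 untreated and 5.45 and 5.63 after NaCl. After NaCl it fell by 1.31 in wild-type (limma, adjusted p = 0.00206), while in OE it rose by 1.36 (adjusted p = 0.00175), calls that were kept without any 1 array, although the rise was not called with only the OE arrays fitted (0.0752). The other flanking genes measured, AT1G14960 on the other side of AT1G14950, CEG, AT3G01560, AT5G45700 and MGH3, differed by -0.22 to 0.39 in wild-type and by -0.21 to 0.08 in OE, and none passed. If AT1G14940 and AT1G14950 are near-identical in sequence, their probes could share signal, which was not tested.

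The genes whose values over the 8 arrays were most like the mean of the 7, among 13279 other named genes, were AT2G28490 (Pearson 0.991), AT1G47540 and AT3G63040 (both 0.980), AT1G14940 (0.980), MSRB6 (0.979), AT3G20510 (0.969), AT1G73320 (0.968), AT1G12010 (0.962), AT5G16880 (0.955) and AT1G27990 (0.955). Spearman correlations were 0.833 to 0.976. The 8 arrays fall into 4 groups, so these values mainly describe likeness of the group means. They say nothing of size, since the differences ran from -2.80 to -0.22 in wild-type, and in OE from 0.08 to 2.22.

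Among those with larger differences, AT3G63040 read 8.35 and 8.52 in wild-type control and 6.33 and 6.47 in wild-type NaCl, and 7.33 and 6.90 in OE control and 9.07 on both OE NaCl arrays. MSRB6, a methionine sulfoxide reductase, which repairs oxidised methionine, read 8.26 and 7.92, 5.78 and 5.74, 6.68 and 6.69, and 7.89 and 8.33 in the same order. At the other end AT5G16880 read 9.89 and 9.84 in wild-type before and 9.63 and 9.66 after NaCl, and in OE 9.79 on both control arrays before and 9.85 and 9.88 after, a pattern of the same shape at a much smaller size.

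**Figure D5:**
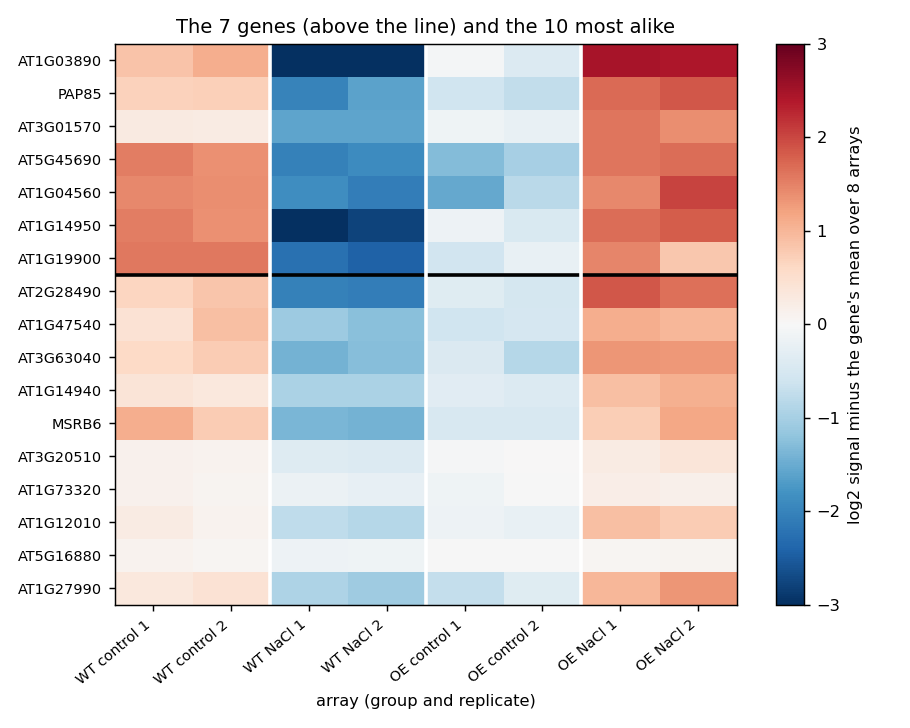
Log2 signal minus the gene's mean over 8 arrays (colour), for the 7 genes above the line and the 10 most alike below it (rows), on each array (columns). Wild-type NaCl columns are the lowest and OE NaCl columns the highest in most rows, and the colour is faint in AT5G16880, AT1G73320 and AT3G20510.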

How the data were processed

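RNA of 8 seedling samples was measured on ATH1 arrays. The deposited log2 values were made by the authors with Affymetrix Expression Console, per the submitters' processing notes; version and summarization method are not given in the sources used here. No further normalization was applied. Of 22810 probe sets, 64 controls were left out and 22746 were tested; 13513 name 1 gene (13436 matched to TAIR10.1), 503 name several and 8730 are unnamed here. limma 3.58.1 in R 4.3.3 was fitted to all 8 arrays, with 1 mean per group, and the Benjamini-Hochberg adjustment ran over all probe sets. The script was tested on simulated data. The number of arrays limits the precision.

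The 7 genes and the gene lists were chosen with earlier results of these data known. Named genes were the 7, all measured storage, oil body and regulator genes, up to 4 genes with the largest change per other list, and the 10 most alike. The list of flanking genes was added, and all of it and M17 were named, after the data were seen. A planned comparison of promoter and protein sequences was not run, since no sequence was used here. Alternatives were quantile normalization, median centring, a filter on low values, array weights, a replicate block, fits of the arrays compared, and leaving out each array.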

Additional observations from a re-analysis of the deposited data

Results flagged for a closer look

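The response to NaCl pointed in opposite directions in the 2 genotypes on every array for the 7 genes, and the difference between the responses (OE minus wild-type, log2) was 6.84 in AT1G03890, 4.95 in PAP85, 3.51 in AT3G01570, 6.28 in AT1G04560, 6.42 in AT1G14950, 6.20 in AT5G45690 and 5.45 in AT1G19900. These differences were not tested, because the genes were chosen on them. The opposite directions held for all 10 genes picked for their likeness to the 7, as that choice favours. In 8 of the 10 the difference was not tested either, with 3.43 in AT1G47540, 3.99 in AT3G63040, 3.75 in MSRB6, 2.01 in AT1G12010 and 3.09 in AT1G27990. It was smaller in AT3G20510 (0.84), AT1G73320 (0.55) and AT5G16880 (0.30).

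In listed or flanking genes that are not among the 7, the interaction of genotype and NaCl passed the test in limma. The difference was 5.01 in AT2G28490, 2.23 in OLEO3, 1.73 in AT3G18570, 2.61 in AT2G25890, 2.75 in AT1G29680 and 2.82 in ICL. It was 2.67 in AT1G14940, the neighbour of AT1G14950 (limma, adjusted p = 0.000866). Among the LEA proteins it was 3.91 in AtLEA4-1, 4.57 in LEA and 3.65 in AT3G15670 (limma, adjusted p = 0.000147, 0.00280 and 0.000136), each kept without any 1 array.

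In 2 of the listed seed genes the response differed the other way. M17, of the LEA list, had a difference of -2.91 (limma, adjusted p = 0.0432). It read 3.80 and 3.69 in untreated wild-type and 5.69 and 6.05 after NaCl, whereas OE read 4.76 and 3.58 untreated and 3.51 and 3.26 after NaCl. This call was lost without any 1 wild-type array or without OE NaCl 2, and also with the replicate number as a block (limma, adjusted p = 0.0551). BAN, of the seed coat list, had a difference of -2.83 (limma, adjusted p = 0.00176), kept without any 1 array. It read 8.72 and 8.46, 8.68 and 8.59, 7.13 and 7.27, and 4.56 and 4.25 in the same order of groups.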

How the results depend on the processing

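The median difference of the 7 genes kept its sign in every comparison under all alternatives run, and with 1 array left out it ranged from -3.49 to -3.36 in wild-type, 2.37 to 2.53 in OE, 5.91 to 6.28 for the difference between responses, -1.83 to -1.61 for OE minus wild-type in control and 3.56 to 3.67 in NaCl. In control it was -1.54 after quantile normalization and -1.50 after median centring. The 7 genes were chosen for such differences, and the arrays of the groups compared do not overlap in any of them. The kept sign is therefore a description and not a check. With 1 array left out, the other seed reserve genes called numbered 1 to 4 lower in wild-type, 5 to 7 higher in OE, 3 to 7 for the response, 2 to 5 lower in OE control and 3 to 6 higher in OE NaCl. In a fit of only the arrays compared, 2 were higher in OE. The count of all probe sets called moved more. It was 258 to 2346 in wild-type, 656 to 6018 in OE, 122 to 2294 for the response, 420 to 8696 in control and 563 to 7057 in NaCl with 1 array left out, where the lone array of a group is assumed to vary like the others. Beside 1324 in wild-type, 1642 in OE and 2057 in NaCl, a fit of only the arrays compared called 5899, 180 and 964, and array weights called 5854 in wild-type and 552 in OE. The causes were not tested.

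Replicate numbers are shared between groups. The deviations of same-numbered arrays correlated at 0.02 in wild-type, 0.18 in OE, -0.05 between controls and -0.13 between NaCl groups. They correlated at -0.20 between wild-type control and OE NaCl, and at -0.02 between wild-type NaCl and OE control. The labels do not say whether same-numbered arrays were handled together, and this was not tested. With the replicate number as a block the medians of the 7 genes were unchanged, 945, 1234, 286, 4025 and 1649 probe sets were called in wild-type, OE, response, control and NaCl, and of 83 calls among the values of listed genes 77 were kept. In a fit of only the 4 NaCl arrays, a crossed pairing chosen after seeing the data called 723, where the same fit without it called 964. Leaving out 1 array kept 48 to 82 of the 83 calls. Without OE NaCl 1, CEG had a response of -0.63 in OE in place of 0.08, and without OE NaCl 2 one of 0.79, its OE NaCl arrays reading 4.87 and 3.45. Averaging the probe sets of a gene was not run as a separate fit, as each listed gene has 1. With 2 arrays a group and no detection calls, low signals are the least certain.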
